A study of Mus musculus with 12 samples.

Results

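Nuclear genes for subunits of the mitochondrial respiratory chain were examined in spleens of 2 BALB/c colonies. A probe set of the array was taken as a member when its annotation named 1 gene only and that symbol began with Ndufa, Ndufb, Ndufc, Ndufs, Ndufv, Uqcr, Cox4, Cox5, Cox6, Cox7, Cox8 or Atp5, or was Sdha, Sdhb, Sdhc, Sdhd or Cyc1. Assembly factors with names in Ndufaf were left out. The choice was made by name and used no measured value. It gave 170 of 45037 probe sets, for 83 of 18193 named genes: 36 genes (78 probe sets) for complex I, 4 (9) for complex II, 9 (17) for complex III, 17 (35) for complex IV and 17 (31) for complex V. A further 10 probe sets, which the annotation gives to a member and to another gene as well, were set aside, and none of them was called in any comparison.

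The 12 arrays each held RNA from the spleen of 1 female mouse, 3 for each of 4 groups. Naïve BALB/cByJ and naïve BALB/cJ mice had received no treatment. Immunized BALB/cByJ and immunized BALB/cJ mice were injected intraperitoneally with cartilage proteoglycan (PG), given in the labels as 100 µg of protein, together with 2 mg of the adjuvant dimethyl dioctadecyl ammonium bromide (DDA), and their spleens were taken 12 days later. The study asked how 2 colonies of the same inbred strain, which differ in PG-induced arthritis, differ in gene expression before and after immunization. A spleen is a mixture of cells, so fewer cells of a type and less RNA per cell cannot be told apart here.

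The respiratory chain sits in the inner mitochondrial membrane. Complexes I and II pass electrons from NADH and succinate to ubiquinone, complex III passes them on to cytochrome c, and complex IV hands them to oxygen. Complexes I, III and IV pump protons, and complex V, the ATP synthase, uses the gradient to make ATP. Several subunits of complex IV exist as pairs of paralogous isoforms, one made in most tissues and another made mainly in muscle, lung or testis. Lymphocytes raise their mitochondrial activity when they are activated, and developing red cells use mitochondria to make haem.

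Each value was a log2 value minus the median of that probe set over the 12 arrays. A value of 0 therefore stood for the middle of the 12 arrays. The values held no signal level, so it could not be judged which isoforms were present, and levels were not compared between genes. The deposited values of the members ran from -0.97 to 0.84, and the median range of a member over the 12 arrays was 0.323, against 0.468 for all probe sets. The median standard deviation within a group was 0.0855 for members and 0.129 for all probe sets. Of the 83 genes, 34 had 1 probe set and 49 had more, up to 6.

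Several arrays stood apart in marker genes of cell types. The median of 38 erythroid probe sets (22 genes) was between 0.20 and 0.63 on the naïve BALB/cByJ arrays, and it was -1.17 and -1.27 on the naïve BALB/cJ arrays 1 and 2, -0.24 on array 3 and -0.82 on the immunized BALB/cJ array 3. In naïve mice 25 of these 38 probe sets, and 52 of 63 of cell division genes, were called higher in BALB/cByJ. Of all probe sets, 4.39% were called in either direction. Pancreatic acinar genes had a median of 2.05 on naïve BALB/cByJ array 1. Pigment cell genes had medians of 0.76 and 0.94 on naïve BALB/cJ arrays 1 and 2 and of 0.87 on immunized BALB/cJ array 1. Because the values were centred, the presence of spleen markers could not be judged.

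Promoters of 3 members are printed first because the results turn on these genes. Cox6b2, an isoform of a small complex IV subunit made mainly in testis, was the member called between the naïve colonies. Cox6b1 is its paralogue made in most tissues. Ndufa3, an accessory subunit of complex I, had 2 probe sets called between the colonies when both states were combined. All 3 genes lie on chromosome 7. The sequences came from the RefSeq promoter table of build GRCm38.p6 and hold the bases before the gene's first annotated base, read 5′ to 3′ on the gene's strand. Cox6b2 is on the minus strand (chr7:4753095-4753344, 250 bases, 54.8% G or C), Cox6b1 on the minus strand (chr7:30626115-30626364, 250 bases, 54% G or C) and Ndufa3 on the plus strand (chr7:3617123-3617346, 224 bases, 49.6% G or C). Capitals mark matches, on either strand, to GCGCANGC (NRF1, a regulator of mitochondrial genes), CGGAAG (ETS factors such as GABP), CCAAT, or GGGCGG (SP1). The last and the second of these can share the bases CGG.
Cox6b2: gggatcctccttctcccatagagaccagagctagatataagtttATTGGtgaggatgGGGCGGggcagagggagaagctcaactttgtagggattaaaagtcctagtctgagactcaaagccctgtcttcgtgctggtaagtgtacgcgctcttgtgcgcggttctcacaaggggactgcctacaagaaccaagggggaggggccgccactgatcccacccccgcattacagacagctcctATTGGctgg
Cox6b1: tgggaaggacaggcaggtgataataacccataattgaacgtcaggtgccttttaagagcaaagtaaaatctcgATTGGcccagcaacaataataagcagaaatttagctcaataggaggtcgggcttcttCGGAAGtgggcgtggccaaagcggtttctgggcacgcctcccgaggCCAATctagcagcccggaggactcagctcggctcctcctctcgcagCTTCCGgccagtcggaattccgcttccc
Ndufa3: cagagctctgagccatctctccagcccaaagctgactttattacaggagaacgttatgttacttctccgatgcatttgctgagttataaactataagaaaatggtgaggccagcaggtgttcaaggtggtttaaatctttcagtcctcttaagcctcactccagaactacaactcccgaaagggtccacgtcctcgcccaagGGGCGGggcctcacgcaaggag

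The window of Cox6b2 held 2 matches to CCAAT and 1 to GGGCGG, that of Cox6b1 held 2 to CGGAAG and 2 to CCAAT, and that of Ndufa3 held 1 to GGGCGG. Of the 83 genes, 67 had a promoter in the table. Within 250 bases before the start, GCGCANGC was in 15 of the 67 member promoters (22.4%, against 8.42% of 27025 promoters), CGGAAG in 20 (29.9%, against 13.8%), CCAAT in 28 (41.8%, against 34.5%) and GGGCGG in 26 (38.8%, against 32.9%). A match of letters is a description and not a binding site.

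In naïve mice, Cox6b2 was higher in the BALB/cByJ colony, and it was the only 1 of the 170 member probe sets that was called (limma, Benjamini-Hochberg adjusted p under 0.05). The members' share of 0.588% stood against 4.39% of all probe sets, of which 1206 were called higher and 770 lower in BALB/cByJ. Cox6b2 had 1 probe set among the members (1435275_at), and whether its signal lay above background could not be judged. It was at 0.24, 0.19 and 0.84 on the 3 naïve BALB/cByJ arrays and at -0.91, -0.97 and -0.80 on the 3 naïve BALB/cJ arrays. The arrays of the 2 colonies did not overlap, and naïve BALB/cByJ array 3 was the highest of all 12. The log2 difference was 1.32 (SE 0.188, 95% confidence interval 0.91 to 1.73, adjusted p = 0.00638), a 2.49-fold difference. Its paralogue Cox6b1 differed by 0.08 (adjusted p = 0.636) and 0.03 (adjusted p = 0.899) in its 2 probe sets, with intervals from -0.16 to 0.25.

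Erythroid and cell division genes were also lower on the naïve BALB/cJ arrays, and their part in the Cox6b2 difference was not tested beyond the fits given here. Naïve BALB/cJ array 3, with an erythroid median of -0.24 and a cell division median of -0.39, had Cox6b2 at -0.80. Immunized BALB/cJ array 3, with medians of -0.82 and -0.55, had it at -0.58. Within naïve BALB/cJ and within each immunized group, the arrays ranked the same way in Cox6b2 and in the erythroid median. Within naïve BALB/cByJ, arrays 1 and 2 ranked the other way. With a term for the mean erythroid value of each array, the naïve difference was 0.69 and was not called (adjusted p = 0.541). Erythroid medians of the naïve colonies did not overlap, so a fit with this term cannot fully separate it from colony. A call lost with this term therefore does not show its source. Without naïve BALB/cJ arrays 1 and 2, which left 1 array in that group, the naïve difference of Cox6b2 was 1.22. The 4 arrays high in pigment cell genes include these 2. Leaving out all 4 therefore gave the same 1.22 and is not a separate check. Of 15 probe sets of testis germ cell genes, none was called in any comparison, and their median lay between -0.12 and 0.02 on the 12 arrays. The call was also lost in a one-way analysis of variance of the kind the study used (adjusted p = 0.116 for the 4 groups). It was run here over all 45037 probe sets, while the paper analysed fewer. Its adjusted p values can therefore differ from the paper's.

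**Figure D1:**
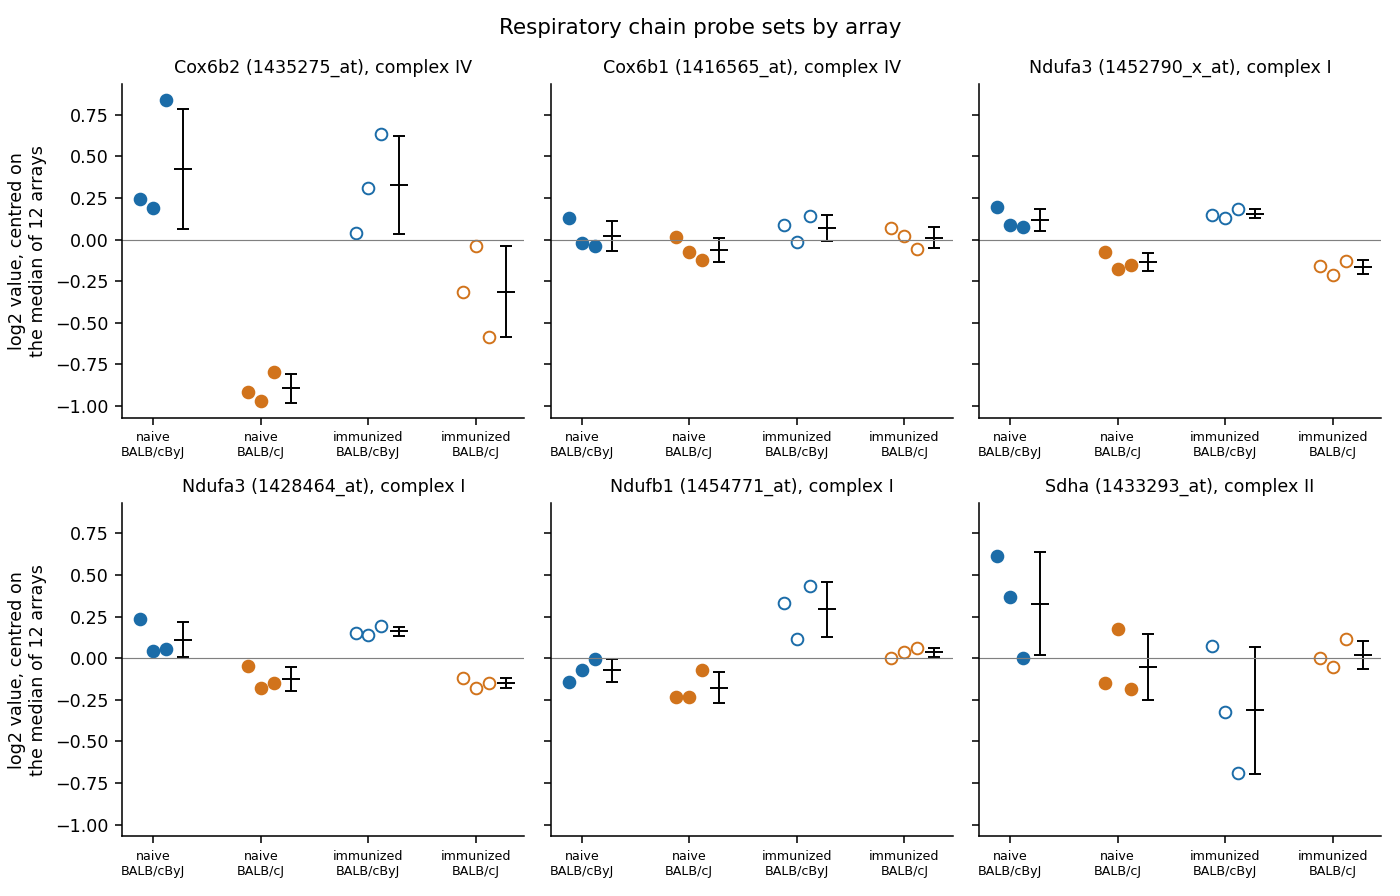
Centred log2 values of 6 member probe sets on each of the 12 arrays, by group, with filled points for naïve and open points for immunized mice. Black marks give the mean and standard deviation of 3 arrays. Cox6b2 on the 3 naïve BALB/cJ arrays lay between -0.97 and -0.80, below all other arrays, while the Cox6b1 probe set shown stayed between -0.12 and 0.14 on all 12 arrays.

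The members with the next 4 smallest p values between the naïve colonies were accessory subunits of complex I. The probe set 1452790_x_at of Ndufa3 was at 0.19, 0.09 and 0.07 in naïve BALB/cByJ mice and at -0.07, -0.18 and -0.15 in naïve BALB/cJ mice, a difference of 0.25 (SE 0.0684, adjusted p = 0.0587). The probe set 1428464_at of the same gene differed by 0.24 (adjusted p = 0.100). Ndufc2 (1431670_at) was at 0.11, 0.20 and 0.21 against -0.20, -0.02 and -0.11, a difference of 0.28 (adjusted p = 0.100), while its other 3 probe sets differed by -0.03 to 0.07. Ndufb9 (1452184_at) was at 0.02, 0.02 and 0.23 against -0.13, -0.28 and -0.11, a difference of 0.26 (adjusted p = 0.113), and its other 2 probe sets differed by 0.17 and -0.03. With the erythroid term described above, the difference of Ndufb9 1452184_at was 0.03. The arrays of the colonies did not overlap in these probe sets, yet the adjusted p stayed above the threshold.

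With an unadjusted p under 0.05 there were 15 members, 12 higher and 3 lower in BALB/cByJ, which is 8.82% of the members against 18.7% of all probe sets. The 3 lower ones were both probe sets of Cox7c, a small subunit of complex IV, at -0.26 (adjusted p = 0.207) and -0.24 (adjusted p = 0.196), and 1 of Cox7a2l, a protein that helps complexes III and IV join into supercomplexes and is matched by its name, at -0.23 (adjusted p = 0.239). In 24 members (14.1%) the arrays of the naïve colonies did not overlap, against 21.7% of all probe sets. Apart from Cox6b2, the differences of the members ran from -0.26 to 0.38. Their median was 0.03, and that of all probe sets was -0.0084. The members' median was 0.0097 without naïve BALB/cByJ array 1, 0.01 without naïve BALB/cJ array 2, 0.02 without naïve BALB/cJ array 3 and 0.06 without naïve BALB/cJ array 1. The 95% interval lay within 0.5 of 0 on the log2 scale for 161 of 170 members (94.7%), against 80.2% of all probe sets.

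In immunized mice no member was called between the colonies, against 0.12% of all probe sets (54). With an unadjusted p under 0.05 there were 5 members (2.94%, against 7.92% of all probe sets), all higher in BALB/cByJ. They were the same 2 probe sets of Ndufa3, Cox6b2, Ndufb1 and Atp5g2. The probe set 1452790_x_at of Ndufa3 was at 0.15, 0.13 and 0.18 in immunized BALB/cByJ mice and at -0.16, -0.21 and -0.13 in immunized BALB/cJ mice. The difference was 0.32 (SE 0.0684, 95% confidence interval 0.17 to 0.47, adjusted p = 0.207), and the spread within each colony was smaller than the gap. The probe set 1428464_at differed by 0.31 (adjusted p = 0.289). In the analysis of variance run here, Student-Newman-Keuls comparisons called Ndufa3 1452790_x_at and no other member, in naïve and in immunized mice. Its adjusted p was 0.0433 for the 4 groups, so that limma and this test called different members.

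Cox6b2 was at 0.04, 0.31 and 0.63 in immunized BALB/cByJ and at -0.31, -0.04 and -0.58 in immunized BALB/cJ mice, a difference of 0.64 (SE 0.188, 95% confidence interval 0.23 to 1.05, adjusted p = 0.446). The groups did not overlap, but the highest BALB/cJ value and the lowest BALB/cByJ value lay close together. The immunized mice carry sample numbers in 2 runs, 29 to 33 and 48 to 50, which the labels do not call batches and which each hold both colonies. The difference of Cox6b2 was 0.49 in the first run and 0.94 in the second, and that of Ndufa3 1452790_x_at was 0.30 and 0.36. Ndufb1, an accessory subunit of complex I, differed by 0.26 (adjusted p = 0.53), and Atp5g2 (1456128_at), 1 of 3 genes for the c subunit of the ATP synthase, by 0.20 (adjusted p = 0.586), while its other 2 probe sets differed by 0.02 and 0.04. In 29 members (17.1%) the arrays of the colonies did not overlap, against 15% of all probe sets.

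**Figure D2:**
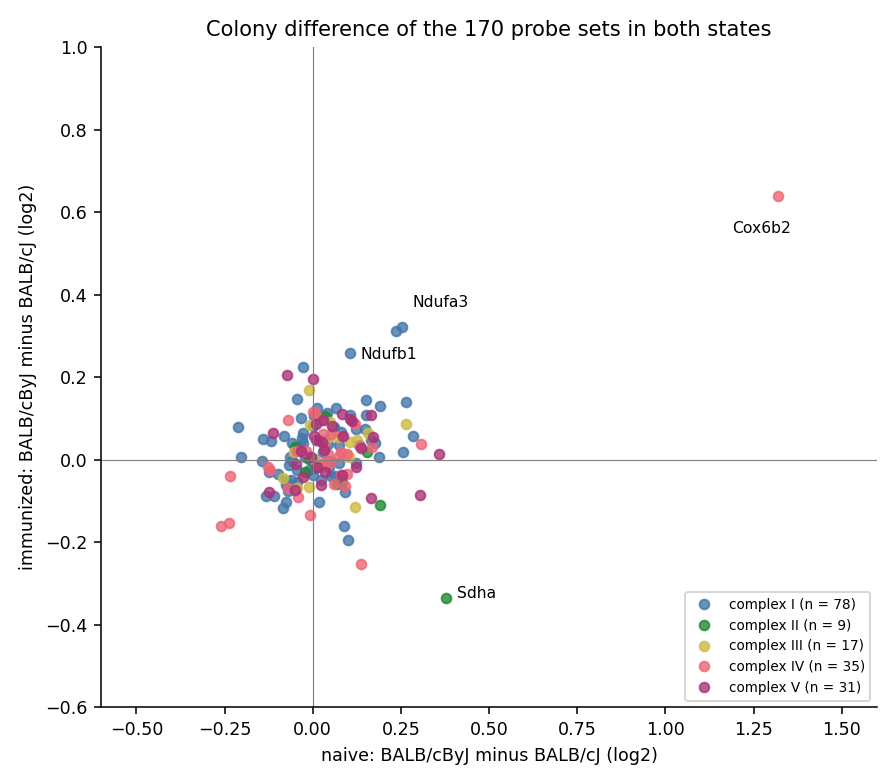
Log2 difference between the colonies (BALB/cByJ minus BALB/cJ) of each of the 170 member probe sets in naïve mice (horizontal axis) and in immunized mice (vertical axis), coloured by complex. Cox6b2 at 1.32 and 0.64 lies far from the rest, and the 2 probe sets of Ndufa3 lie above 0.2 on both axes.

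When the colony difference was averaged over naïve and immunized mice, a contrast added after the data were seen, 3 members (1.76%) were called, all higher in BALB/cByJ, against 4.62% of all probe sets. Cox6b2 differed by 0.98 (adjusted p = 0.00361), Ndufa3 1452790_x_at by 0.29 (adjusted p = 0.00923) and Ndufa3 1428464_at by 0.27 (adjusted p = 0.0150). The third probe set of Ndufa3, 1430149_at, differed by -0.05 in naïve and 0.15 in immunized mice. With the erythroid term the difference of Cox6b2 was 0.56 (adjusted p = 0.477), and without naïve BALB/cJ arrays 1 and 2 it was 0.93 (adjusted p = 0.115). Without naïve BALB/cJ array 2 the difference of 1428464_at was 0.26 and no longer called (adjusted p = 0.0545). With the erythroid term the difference of Ndufa3 1452790_x_at was 0.33, against 0.29 without the term, and was not called (adjusted p = 0.34). The size of the difference did not fall with the term, which overlaps with colony. Without naïve BALB/cJ arrays 1 and 2 the difference of this probe set was 0.30.

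In 7 members (4.12%) the colonies did not overlap in either state, the same way in both, against 3.86% of all probe sets. All 7 were higher in BALB/cByJ: Cox6b2, the 2 probe sets of Ndufa3, Ndufb9 1452184_at, Ndufv1 1415967_at, Ndufv2 1428179_at and Atp5g1 1416020_a_at. Ndufv1 binds NADH and the flavin of complex I, and its probe set 1415967_at was at -0.06, 0.0050 and 0.20 against -0.14, -0.16 and -0.13 in naïve mice, a difference of 0.19 (adjusted p = 0.215). Its other 2 probe sets differed by 0.04 and 0.18. Ndufv2, which carries an iron-sulfur cluster, differed by 0.15 (adjusted p = 0.272) between the naïve and 0.11 (adjusted p = 0.727) between the immunized colonies.

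Ndufa3 and its neighbour Tfpt lie on chromosome 7 with their ends facing each other. One probe set of Tfpt, 1438963_s_at, was called higher in BALB/cByJ in naïve mice, by 0.56 (adjusted p = 0.00903), and in immunized mice, by 0.57 (adjusted p = 0.0278), and 1448040_at of the same gene was called in naïve mice, at 0.41 (adjusted p = 0.0457), and not in immunized mice, at 0.30 (adjusted p = 0.538). The other 2 probe sets of Tfpt differed by 0.11 and 0.21 in naïve mice and by -0.0081 and 0.02 in immunized mice, without a call. Over both states 1438963_s_at and 1448040_at of Tfpt were called, at 0.56 (adjusted p = 7.72e-04) and 0.35 (adjusted p = 0.0206). Both probe sets of Cnot3, 3 places from Ndufa3, were also called over both states, at 0.24 (adjusted p = 0.0410) and 0.27 (adjusted p = 0.0298). No other measured probe set of a neighbour within 3 places was called. Whether these differences and that of Ndufa3 are related was not tested. Of the measured genes within 3 places of Cox6b2, none was called in naïve or in immunized mice, and Kmt5c, the gene beside it, differed by 0.27 (adjusted p = 0.166) before and by 0.34 (adjusted p = 0.455) after immunization. Over both states Kmt5c differed by 0.31 and was called (adjusted p = 0.0330).

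After immunization no member was called in either colony, with limma or with the analysis of variance. In BALB/cJ mice 0% of all probe sets were called, so the members could not stand out there. With an unadjusted p under 0.05 there were 7 members (4.12%, against 9.19% of all probe sets), 5 higher and 2 lower after immunization. The arrays of naïve and immunized BALB/cJ mice did not overlap in 29 members (17.1%), against 17% of all probe sets. In BALB/cByJ mice 0.0511% of all probe sets were called (23), and 8 members (4.71%, against 8.30% of all probe sets) had an unadjusted p under 0.05, 7 higher and 1 lower. There the arrays did not overlap in 22 members (12.9%), against 12.1% of all probe sets.

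Ndufb1 (1454771_at) had the smallest p of the members after immunization in BALB/cByJ. Its naïve BALB/cByJ arrays stood at -0.14, -0.07 and -0.0040, and it was at 0.33, 0.11 and 0.44 after immunization, a difference of 0.37 (SE 0.0895, 95% confidence interval 0.17 to 0.56, adjusted p = 0.314). In BALB/cJ mice it went from -0.23, -0.23 and -0.07 to 0.0040, 0.04 and 0.06, a difference of 0.21 (adjusted p = 0.51). Naïve and immunized arrays did not overlap in either colony, and averaged over the colonies the difference was 0.29 (adjusted p = 0.2). Without naïve BALB/cJ arrays 1 and 2 the difference in BALB/cJ mice was 0.10, and with the sample-number run as a block it was 0.13. That block placed the naïve arrays with the first run of immunized mice. It could not separate immunization from the runs, as no run holds naïve and immunized mice.

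Sdha (1433293_at), the flavoprotein of complex II that oxidizes succinate, had the lowest difference after immunization. Its naïve BALB/cByJ arrays stood at 0.61, 0.37 and -0.0014 and its immunized ones at 0.07, -0.32 and -0.69, so the groups overlapped, and the difference was -0.64 (SE 0.185, adjusted p = 0.414). In BALB/cJ mice the difference of the same probe set was 0.07 (adjusted p = 0.946). The other 3 probe sets of Sdha differed by -0.07 to 0.0073 in BALB/cByJ mice.

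Uqcrq, a small subunit of complex III, differed by 0.25 (adjusted p = 0.426) after immunization of BALB/cByJ mice in the probe set 1430326_s_at, and by -0.02 (adjusted p = 0.963) in 1452613_at. Uqcrc1, a core subunit of complex III, differed by 0.18 (adjusted p = 0.583). Ndufab1, the mitochondrial acyl carrier protein that also sits in complex I, differed by 0.24 (adjusted p = 0.548) in 1435934_at, and its other 4 probe sets by -0.11 to 0.04.

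In BALB/cJ mice Cox6b2 had the smallest p after immunization, at 0.58 (SE 0.188, adjusted p = 0.406), as its 3 immunized values of -0.31, -0.04 and -0.58 lay above the 3 naïve ones. The erythroid list had a median difference of 0.60 in the same comparison, with 36 of 38 probe sets above 0, and with the erythroid term the difference of Cox6b2 was 0.28 (adjusted p = 0.754). Cox6b2 was followed by Atp5j2 (1416269_at), a subunit of the membrane part of the ATP synthase, at 0.19 (adjusted p = 0.468), Cox5b (1416902_a_at), a zinc-binding subunit of complex IV, at 0.20 (adjusted p = 0.478), and Atp5o (1437164_x_at), the stalk subunit that holds the catalytic part of the ATP synthase, at 0.28 (adjusted p = 0.51). The other 5 probe sets of Cox5b ran from -0.11 to 0.17, and with the erythroid term 1416902_a_at was at 0.11.

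Over all members the median difference with immunization was 0.05 in BALB/cJ and 0.04 in BALB/cByJ mice. Of the 170 differences, 123 (72.4%) and 115 (67.6%) were above 0, against 49.8% and 50.0% of all probe sets. Related lists varied. In the same order, the shares were 75% and 82.5% for glycolysis and 75% and 58.3% for mitochondrial import. They were 60.3% and 62.8% for mitochondrial ribosomal proteins and 23.8% and 52.4% for complex I assembly factors. All probe sets had medians of -8.0e-04 and -1.6e-04. The 14 probe sets of neutrophil genes had median differences of 1.03 and 1.53 in the same comparisons. Whether cell content changed, and whether it had a part in the members' values, was not tested. Without naïve BALB/cJ array 1 the members' median in BALB/cJ was 0.09. By complex, the medians in BALB/cJ mice were 0.02 for complex I, 0.06 for II, 0.10 for III, 0.07 for IV and 0.08 for V. In BALB/cByJ mice they were 0.03, -0.07, 0.03, 0.05 and 0.07 in the same order. These comparisons use different mice in each colony. On the single arrays, the median of the 170 probe sets ran from -0.06 to 0.02 in the 6 naïve mice and from -0.0026 to 0.06 in the 6 immunized ones, so the ranges overlapped. The probe sets are not independent of each other, and immunization cannot be told apart from the sample-number runs, since no run holds naïve and immunized mice.

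**Figure D3:**
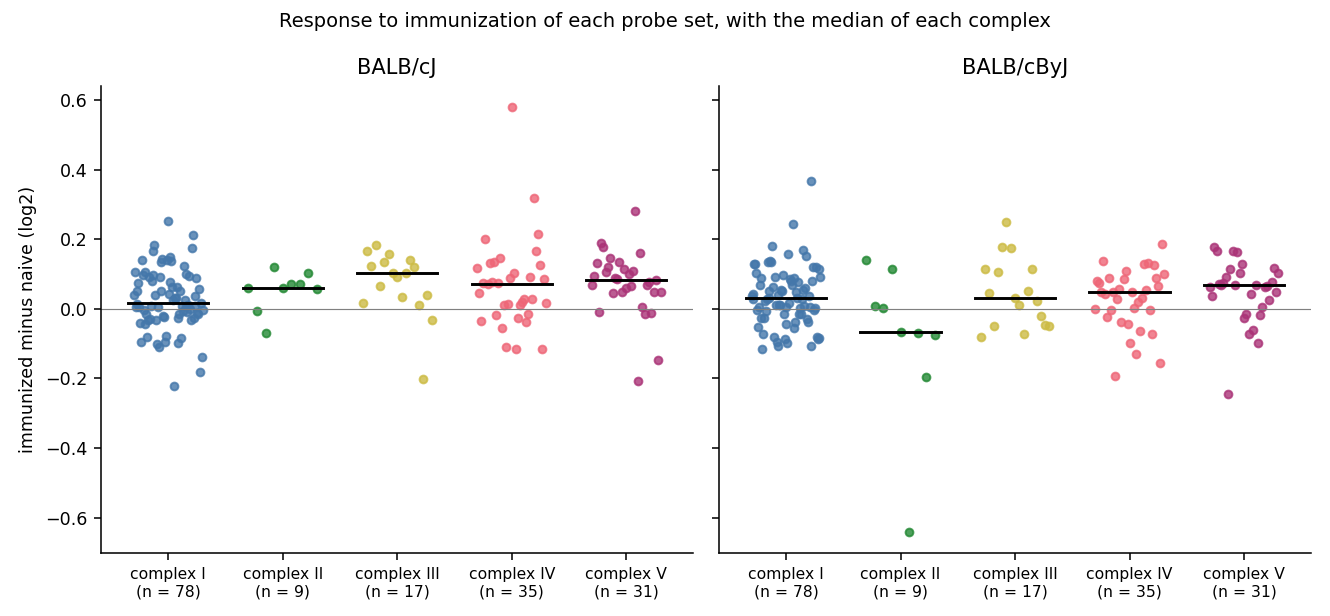
Log2 difference between immunized and naïve mice of each member probe set, by complex, in BALB/cJ (left) and BALB/cByJ (right), with black lines at the median of each complex. The medians lie between -0.07 and 0.10, and the lowest point is the Sdha probe set at -0.64 in BALB/cByJ.

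**Figure D4:**
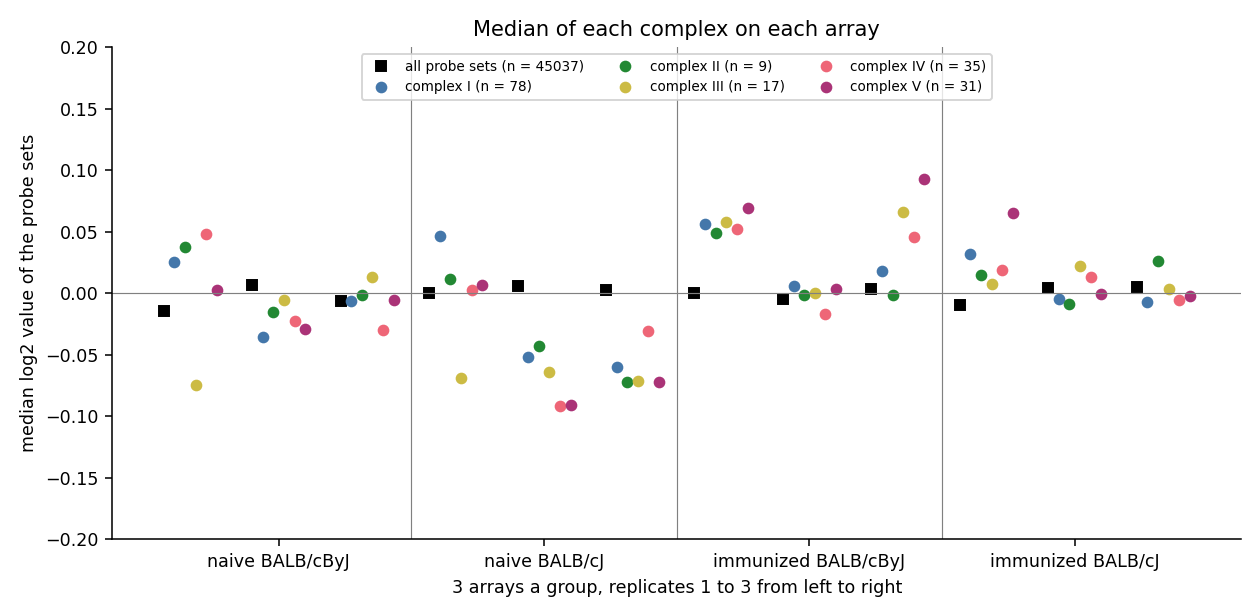
Median centred log2 value of the probe sets of each complex, and of all probe sets, on each of the 12 arrays. The medians of the complexes stay between -0.09 and 0.09, and naïve and immunized arrays overlap.

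No member was called for a difference between the colonies in the response to immunization, and neither was any other probe set (0%). Of the members, 2 (1.18%, against 7.59% of all probe sets) had an unadjusted p under 0.05. The Sdha probe set 1433293_at had a response lower by 0.71 in BALB/cByJ than in BALB/cJ (difference -0.71, SE 0.262, adjusted p = 0.576), and Cox6b2 had a difference of -0.68 (SE 0.266, adjusted p = 0.596). The erythroid list had a median difference of -0.93 between the responses, with 0 of 38 probe sets above 0, and with the erythroid term the difference was -0.25 for Cox6b2 and -1.09 for Sdha 1433293_at. Next came Atp5a1 (1420037_at), the alpha subunit of the ATP synthase, at -0.39, Atp5o at -0.34 and Ndufa4l2, a relative of Ndufa4 that rises in low oxygen, at 0.29, with adjusted p between 0.675 and 0.695. Without naïve BALB/cByJ array 1 the value of Ndufa4l2 was 0.17. With the responses averaged over both colonies, no member was called either, against 0.0466% of all probe sets.

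Of the subunits that carry out the chemistry, none was called in any of the comparisons. For complex I, the NADH and iron-sulfur subunits Ndufv1, Ndufv2, Ndufs1, Ndufs7 and Ndufs8 and the core subunit Ndufs3 had 16 probe sets. They differed between the naïve colonies by -0.08 to 0.19, between the immunized colonies by -0.12 to 0.13, and after immunization by -0.10 to 0.18 in BALB/cJ and -0.08 to 0.18 in BALB/cByJ, with no call. Ndufs8 had 6 probe sets. In complex II, Sdha had the probe set 1433293_at described above, with a naïve colony difference of 0.38 (adjusted p = 0.296), and its other 3 probe sets differed by -0.01 to 0.07. Sdhb, the iron-sulfur subunit, differed between the colonies by -0.05 in naïve and by 0.03 in immunized mice, and the membrane anchors Sdhc and Sdhd had 2 probe sets each with no call.

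In complex III, cytochrome c1 (Cyc1), the Rieske protein Uqcrfs1, the core proteins Uqcrc1 and Uqcrc2 and the quinone-binding subunit Uqcrb had 7 probe sets. Their colony differences ran from -0.08 to 0.10 in naïve and from -0.07 to 0.09 in immunized mice. In the ATP synthase, the alpha, beta and gamma subunits (Atp5a1, Atp5b and Atp5c1) had 6 probe sets with naïve colony differences of -0.13 to 0.30. The highest was 1420037_at of Atp5a1 (adjusted p = 0.244), whose other 2 probe sets differed by 0.0098 and -0.05, and which had a difference of -0.39 between the colonies' responses. The 3 genes of the c ring, Atp5g1, Atp5g2 and Atp5g3, had 6 probe sets between -0.05 and 0.17 in naïve mice.

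Among the isoforms of complex IV, Cox6b2 alone was called. The isoforms of most tissues (Cox4i1, Cox5a, Cox5b, Cox6a1, Cox6b1, Cox6c, Cox7a2, Cox7c and Cox8a) had 23 probe sets with naïve colony differences from -0.26 to 0.17. The isoforms known from other tissues had 9: Cox4i2 of lung, Cox6a2, Cox7a1 and Cox8b of muscle, and Cox6b2, Cox7b2 and Cox8c of testis. Apart from Cox6b2, their naïve colony differences ran from -0.07 for Cox8c to 0.31 for Cox7a1 (adjusted p = 0.289), and the testis isoforms Cox7b2 and Cox8c differed by -0.04, -0.07 and -0.0089 in their 3 probe sets. Ndufa4, named for complex I and now placed in complex IV, differed between the colonies by 0.06 in naïve and by 0.08 in immunized mice.

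**Figure D5:**
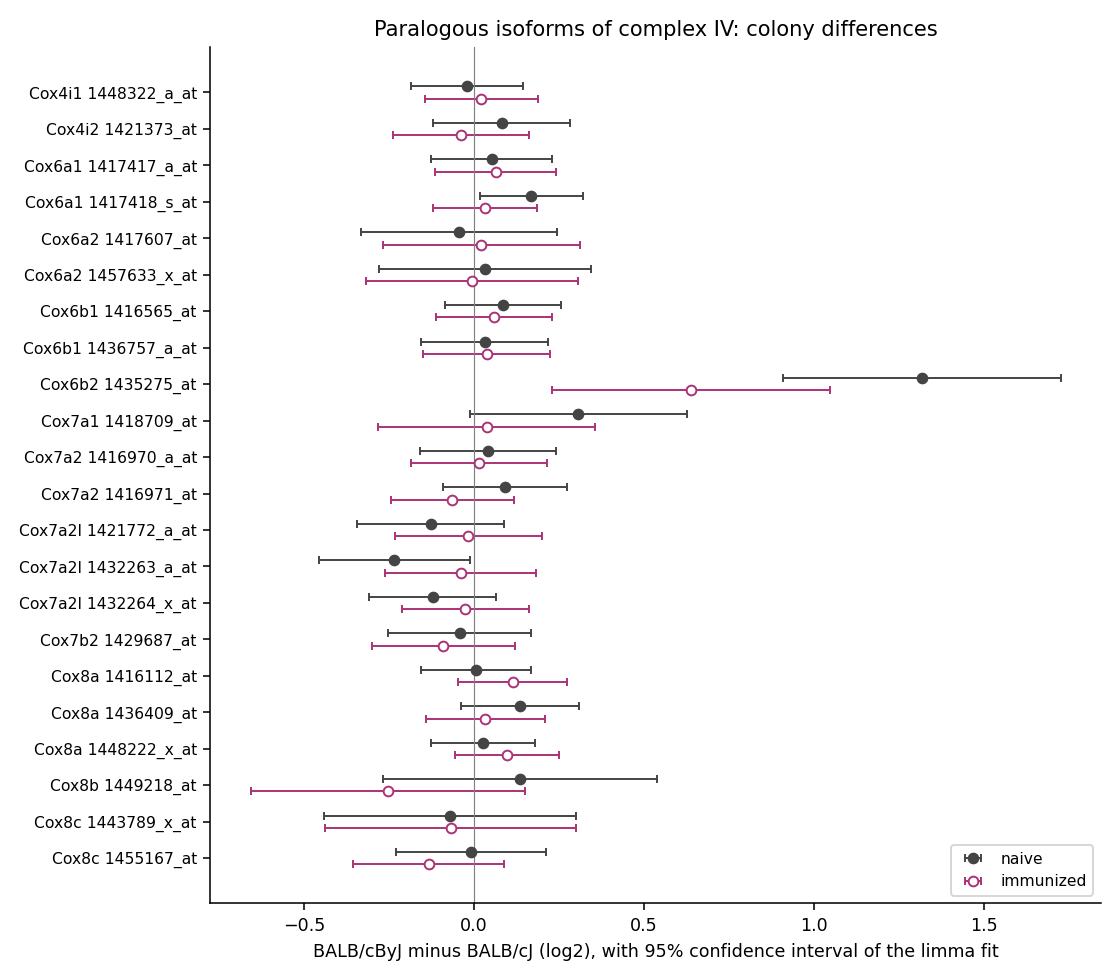
Log2 difference between the colonies (BALB/cByJ minus BALB/cJ) with its 95% confidence interval for the probe sets of the paralogous isoforms of complex IV, in naïve (filled) and immunized (open) mice. Cox6b2 lies at 1.32 and 0.64, and its naïve interval of 0.91 to 1.73 overlaps that of no other isoform.

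The members with the widest range over the 12 arrays were, after Cox6b2 (1.81), Sdha 1433293_at (1.30), Cox8b (1.01), Cox8c 1443789_x_at (0.74), Uqcrq 1437134_at (0.73), Sdhd 1437489_x_at (0.73), Ndufa12 1425919_at (0.72), Cox7a1 (0.71), Uqcr10 1434340_at (0.70) and Ndufb1 (0.67). Only 3 of the 170 had a range over 1. Cox8b, an isoform of muscle and brown fat, owed its range to 1 array, immunized BALB/cJ array 1 at 0.70, with the other 11 between -0.31 and 0.11. In 22 of the 49 genes with several probe sets, the signs of the naïve colony differences were mixed. The members' median absolute difference was only 0.0710, so many signs carry little, and the share over all genes was not computed. Proteins matched by name that are not subunits in the strict sense or have further roles, Ndufab1, Cox7a2l, Atp5md and Atp5mpl, had 10 probe sets with naïve colony differences from -0.23 to 0.26 and no call.

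Lists of genes that build and feed the chain were compared in the same way between the naïve colonies, where 4.39% of all probe sets were called. None of 21 probe sets of complex I assembly factors, 37 of electron carriers and other entry points, 36 of the citric acid cycle, 23 of mitochondrial DNA copying and transcription, 34 of regulators of mitochondrial genes, 48 of mitochondrial import and 156 of mitochondrial ribosomal proteins was called. Of 55 probe sets of assembly factors of complexes II to V, 1 was called higher in BALB/cByJ: Cox10 1459977_x_at, an enzyme that makes haem A for complex IV, at 0.34 (adjusted p = 0.025). Of 40 glycolysis probe sets, Pfkm was called higher, at 0.64 (adjusted p = 0.0196), and Pfkp lower, at -0.32 (adjusted p = 0.042). Both are phosphofructokinases. Over both states, the calls in these lists were Cox10, Pfkm and the 2 probe sets of Atpif1 named next, and in addition Cox11, which helps deliver copper to complex IV, at 0.24 (adjusted p = 0.0371), Dlst, a subunit of the 2-oxoglutarate dehydrogenase complex of the citric acid cycle, at 0.29 (adjusted p = 0.0150), and Hk1, a hexokinase, at 0.38 (adjusted p = 0.0454), all higher in BALB/cByJ.

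Of 28 probe sets of mitochondrial carriers and related proteins, 2 were called, both of Atpif1, the inhibitor that blocks the ATP synthase when it runs backwards and is abundant in red cell precursors. Atpif1 1448770_a_at was at 0.38, 0.30 and 0.51 in naïve BALB/cByJ mice and at -0.43, -0.68 and -0.24 in naïve BALB/cJ mice, a difference of 0.85 (adjusted p = 0.00932), and 1453681_at differed by 0.68 (adjusted p = 0.0157). The erythroid medians of these arrays, given above, ran the same way, and their part in the Atpif1 difference was not tested. In immunized mice, and with immunization in either colony, none of these lists held a call.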

How the data were processed

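RNA from 12 spleens, 3 mice a group, was hybridised to Affymetrix whole-genome mouse arrays. Per the methods, the authors summarised probes in GeneSpring by the RMA procedure (quantile normalization, then median polish). The log2 values the authors deposited are further centred to a median of 0 for every probe set, so that fold differences stand but signal levels do not. No source used here states the base of the logarithm, which was taken as 2 from the RMA procedure. All 12 columns were used, and 0 columns belonged to other samples. The table held 45101 probe sets; without its 64 controls, 45037 were tested, with no filter. Gene names came from the platform annotation: 34945 probe sets had 1 symbol, 932 several and 9160 none.

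limma 3.58.1 in R 4.3.3 fitted a mean for each group over all 12 arrays (lmFit, eBayes without trend, not robust), and p values were adjusted by Benjamini-Hochberg over all probe sets. An adjusted p under 0.05 was called. The fit was tested on simulated data. Replicates were separate animals by the labels. The number of arrays limits the precision.

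The members and lists were chosen with earlier results of these data known. Named were members that were called, the 5 with the smallest p in each comparison, the 10 with the widest range, the catalytic subunits and paralogous isoforms, proteins matched by name that are not subunits, and called members of the pathway lists. Cox7c, Cox7a2l and the neighbours of Cox6b2 and Ndufa3 in the gene table of GRCm38.p6 were described after their values were seen. The marker lists were erythroid, cell division, pancreatic acinar, pigment cell, neutrophil, adipose, muscle, testis germ cell, B cell, T cell and macrophage. Alternatives were an analysis of variance of the kind the study used, other normalizations, variance models and weights, and fits of fewer arrays. Others were the replicate number or the sample-number run as a block, gene means and an erythroid covariate. Colony and immunization differences averaged over the other factor, and leaving out naïve BALB/cJ arrays 1 and 2, were added after the data were seen. Python 3.11.15 with pandas 2.3.3 served for the tables and matplotlib 3.10.9 for the figures.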

Additional observations from a re-analysis of the deposited data

How the results depend on the processing

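Between the naïve colonies, the count of called members was 1 and rose to 2 with a trended and robust variance and to 7 with array weights. It fell to 0 with the erythroid covariate, when the 4 arrays high in pigment cell genes were left out, and without naïve BALB/cJ arrays 1 and 2. Leaving out each array in turn gave 1 to 2, with 2 only without naïve BALB/cByJ replicate 1, and Cox6b2 stayed called in each, at 1.11 to 1.43. In immunized mice the count of 0 became 1 in the analysis of variance (Ndufa3). Over both states the count of 3 became 6 with array weights, and 0 with the erythroid covariate, without the 4 pigment arrays or without naïve BALB/cJ arrays 1 and 2. Leaving out each array gave 2 to 4. The causes were not tested, beyond the smaller number of arrays in the fits that left some out. With the replicate number as a block, 2 members were called between the naïve colonies, Cox6b2 and Ndufc2 1431670_at (adjusted p = 0.0477), and the other counts did not change. Deviations of same-numbered arrays correlated with a median of 0.10 (18 pairs, -0.29 to 0.37). Those of differently numbered arrays correlated with a median of -0.05 (36 pairs, -0.42 to 0.52). The ranges overlapped, and the main fit used no pairing. Of 793 values of single probe sets under alternatives, 771 kept direction and side of the threshold, 14 lost a call, 8 gained one and 0 changed sign. Many of these values could not change. The analysis of variance, the variance model, the replicate block and the fits of the compared groups only leave a difference of group means as it is. So does leaving out an array of a group that is not compared, and the same holds for the medians. Most of these results were not called in the main fit. Of 164 values of the members' median, 2 moved by more than the spread between replicates: 0.09 for immunization in BALB/cJ without naïve BALB/cJ replicate 1, and 0.06 for the colonies over both states without the 4 pigment arrays, against 0.02. The median difference of the responses, -0.0066, changed sign in 5 fits that left out 1 array, and leaving out each array gave -0.03 to 0.02. Naïve BALB/cJ arrays 1 and 2 are among the 4 pigment arrays, so for the naïve colonies the fits without them are not separate checks. In fits that left 1 array in a group, that array was assumed to vary like the other groups. The analysis of variance was not run for the difference of the responses. A filter on dim probe sets could not be run, as the values hold no signal level, so differences of probe sets near background cannot be separated from those of well-measured ones.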

Other observations

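Marker lists had these further values. The median of the 18 pigment cell probe sets was 0.76 and 0.94 on naïve BALB/cJ arrays 1 and 2, 0.87 on immunized BALB/cJ array 1 and 0.25 on immunized BALB/cByJ array 2, and between -0.29 and 0.02 on the other 8 arrays. The median of 14 probe sets of neutrophil genes was at most 0.13 on the naïve arrays and between -0.12 and 1.23 on the immunized arrays. With immunization all 14 were higher in both colonies, without a call in either. Averaged over both colonies, 3 of them were called higher, against 0.0466% of all probe sets called. Between the naïve colonies 4.39% of all probe sets were called. In naïve mice, 1 of 24 muscle probe sets was called higher in BALB/cByJ, 2 of 24 pancreatic acinar probe sets were called higher, 2 of 13 B cell and 1 of 18 pigment cell probe sets were called lower, and none of 16 T cell, 18 macrophage, 14 neutrophil and 11 adipose probe sets was called.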
